A study of Mus musculus with 16 samples.

Results

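In young hematopoietic stem cells (HSCs), 4148 promoter peaks of H3K4me3 had no counterpart in the peak list of aged HSCs, and these young-only peaks are described here. They were chosen by position from the pooled peak list of each age. A young peak on chromosomes 1 to 19 was taken when a start site of a protein-coding gene was 1 kb or less from it and when no peak of the aged list overlapped it or lay within 1 kb. Of 11377 young peaks in all, 11279 were on these chromosomes and 8918 were promoter peaks, so that 46.5% of the young promoter peaks were young-only. The other 4770 had an aged peak within 1 kb, of which 3046 overlapped it, and are called shared peaks. The same rule applied to the 5431 aged promoter peaks left 1352 aged-only peaks (24.9%). The young list is the longer one, and when it was limited to its strongest peaks to match the aged list in length, 43.8% of young and 44.2% of aged promoter peaks were listed at 1 age alone. Because the young and aged H3K4me3 lists selected the members, their H3K4me3 values are a description and carry no test.

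HSCs were sorted from bone marrow of female C57BL/6 mice as cells positive for Sca-1, c-kit and CD150 and negative for the IL-7 receptor (IL-7- in the labels), Lin, CD34, CD48 and Flt3. The young mice were 10 weeks old and the aged mice 20 months old. Bone marrow was pooled between animals before the sort, and the labels name no treatment and no altered gene. Chromatin immunoprecipitation with sequencing was done for H3K4me3, H3K27me3 and H2AK119ub1 with 2 libraries per mark and age, plus 2 input libraries per age, 16 libraries in all. The deposited peaks came as 1 pooled list per mark and age. No spread between replicates could therefore be measured, and each difference below is a difference between lists. Intervals are 95% Wilson intervals for shares and order-statistic intervals for medians. They cover counting error over peaks only, and neighbouring peaks are not independent.

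H3K4me3 is laid down around the start sites of active and poised genes by the SET1 and MLL methyltransferase complexes and marks nucleosomes that flank the start site. H3K27me3 and H2AK119ub1 are the marks of Polycomb repressive complexes 2 and 1, which hold developmental genes silent, and promoters with both H3K4me3 and H3K27me3 are called bivalent. HSCs are mostly quiescent and keep a transcription factor network that holds them undifferentiated.

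The DNA under the strongest young-only peaks is shown to make the members concrete. Each line gives 120 bases of the mm10 assembly at the part of the peak nearest its summit that is free of exons, read 5′ to 3′ on the strand of the gene named. Capitals mark a match to one of 17 short motifs listed further on. The stretches at Golph3 (chr15:12321076-12321195), Cop1 (chr1:159232928-159233047), Ehmt1 (chr2:24919900-24920019) and Gsk3a (chr7:25238273-25238392) belong to the 4 members of highest rank that had such a stretch.
Golph3: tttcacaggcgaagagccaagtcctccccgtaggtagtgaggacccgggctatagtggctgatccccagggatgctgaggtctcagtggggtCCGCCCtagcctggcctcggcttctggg
Cop1: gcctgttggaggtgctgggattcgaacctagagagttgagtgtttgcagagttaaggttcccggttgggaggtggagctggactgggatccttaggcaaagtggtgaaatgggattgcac
Ehmt1: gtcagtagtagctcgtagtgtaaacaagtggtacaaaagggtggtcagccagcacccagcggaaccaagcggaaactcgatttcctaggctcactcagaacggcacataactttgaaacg
Gsk3a: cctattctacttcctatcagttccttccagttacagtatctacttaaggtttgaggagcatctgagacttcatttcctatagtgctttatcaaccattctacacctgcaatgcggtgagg

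These 4 stretches held 5, 2, 6 and 1 CpG dinucleotides in the order given, and only the Golph3 stretch held a motif match, a GC box. Cecr2 (chr6:120665574-120665693) and Meis2 (chr2:116066975-116067094) are shown because their peaks lay in young H3K27me3 regions. Zbtb49 (chr5:38220184-38220303) and B4galnt2 (chr11:95915390-95915509) are shown because their peaks lay in aged H2AK119ub1 regions.
Cecr2: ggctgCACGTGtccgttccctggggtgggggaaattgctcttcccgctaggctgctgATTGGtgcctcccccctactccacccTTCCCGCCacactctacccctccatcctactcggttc
Meis2: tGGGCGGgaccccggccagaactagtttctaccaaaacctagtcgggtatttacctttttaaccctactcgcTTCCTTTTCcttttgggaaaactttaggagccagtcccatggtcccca
Zbtb49: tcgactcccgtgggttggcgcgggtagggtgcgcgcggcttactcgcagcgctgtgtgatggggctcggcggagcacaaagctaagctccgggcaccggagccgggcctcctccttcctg
B4galnt2: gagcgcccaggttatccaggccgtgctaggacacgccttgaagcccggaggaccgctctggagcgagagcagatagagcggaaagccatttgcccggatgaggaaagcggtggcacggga

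The Cecr2 stretch held a CCAAT box, an E-box and an E2F match among 5 CpG dinucleotides, and the Meis2 stretch a GC box and an IRF match among 4. The Zbtb49 and B4galnt2 stretches held 14 and 10 CpG dinucleotides and no match.

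The strongest young-only peak was at Golph3, which codes for a Golgi membrane protein. It lay at chr15:12320782-12321314 with a fold enrichment of 7.62 over the local background, a −log10 q-value of 15.17 and 35 reads at the summit. Its summit was in intergenic sequence at -314 bp from the start site (negative values are upstream), and the next aged peak was 114916 bp away. Mpc2, a subunit of the mitochondrial pyruvate carrier, followed with 7.26-fold enrichment and 35 reads at chr1:165460680-165460928, with its summit at -255 bp. Cop1, a ubiquitin ligase, had 7.44-fold enrichment and 34 reads at chr1:159232866-159233158 in its own intron, 1558560 bp from the next aged peak. Ehmt1, a histone H3K9 methyltransferase, and Gsk3a, a kinase of the WNT and insulin pathways, both had 7.06-fold enrichment and 34 reads. Their peaks at chr2:24919827-24920111 and chr7:25238202-25238482 lay upstream of the start sites, 14366 bp and 18376 bp from an aged peak. The next 5 were at Phf12 (6.72-fold), Ogfr (6.86-fold), Mrps22 (6.80-fold), Med24 (6.65-fold) and Nol12 (6.65-fold). None of these 10 peaks overlapped a Polycomb region at either age, which was rare among strong peaks of both young groups. At 22 reads or more, young H3K27me3 overlapped 3.09% of young-only and 1.37% of shared peaks. Aged H2AK119ub1 overlapped 3.01% and 2.84% of them.

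The 3 widest young-only peaks were at Dapp1 (1496 bp, 3.89-fold), Cd47 (1365 bp, 6.38-fold) and Msi2 (1119 bp, 4.46-fold). Dapp1 is an adaptor of phosphoinositide signalling, Cd47 is the surface protein that protects blood cells from phagocytosis, and Msi2 is an RNA-binding protein of HSCs. All 3 summits lay in the gene's own intron, from 689 to 764 bp downstream of a start site. The Dapp1 peak was 1874 bp from an aged peak, whereas those of Cd47 and Msi2 were 573519 bp and 146738 bp away.

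Young-only peaks were somewhat weaker and narrower than shared ones, and the ranges overlapped. The median pileup, the number of reads covering the summit, was 20 in young-only, 21 in shared and 19 in aged-only peaks. The median fold enrichment was 4.04, 4.16 and 4.20, and the median −log10 q-value 4.43, 4.78 and 4.16, in the same order. The median background under the peaks was 3.96 reads in both young groups and 3.52 reads in the aged-only group. The median width was 286 bp (283 to 291) for young-only peaks, 314 bp (309 to 319) for shared peaks and 260 bp (254 to 266) for aged-only peaks. The pileup of young-only peaks ran from 14 to 35 reads, and 40.1% of them reached the median of the shared peaks. The smallest pileup listed at an aged promoter was 13 reads, and 65.0% of the young-only peaks were at or above the aged median of 19 reads. Total reads are not in these lists, so read numbers of the young and aged lists are not on a known common scale.

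**Figure D1:**
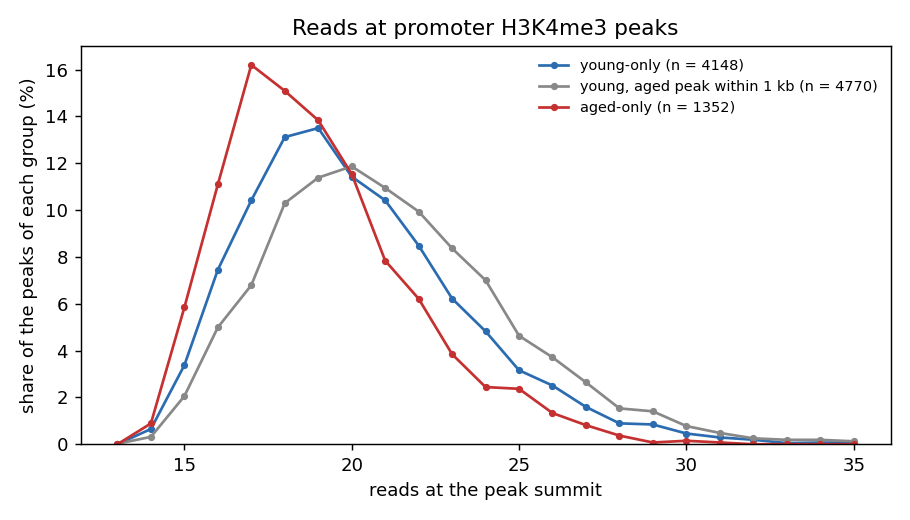
Distribution of the number of reads at the summit (x axis, 13 to 35 reads) as the share of each group's peaks (y axis, %) for 4148 young-only peaks (blue), 4770 young peaks with an aged peak within 1 kb (grey) and 1352 aged-only peaks (red). The medians were 20, 21 and 19 reads, and the young-only curve ran between the other 2 over most of the range.

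The share of young promoter peaks that were young-only fell with the number of reads. Below 16 reads it was 59.4% (53.6 to 65.0), at 20 to 21 reads 45.4% (43.3 to 47.6), and at 30 reads or more 31.8% (24.8 to 39.6, 47 of 148 peaks). By width it fell from 52.1% in the narrowest quintile to 37.8% in the widest. The GC content of 301 bp around the summit showed no such slope, with 44.9% to 49.5% young-only across quintiles of GC. The share also stayed between 45.9% and 48.0% across quintiles of the CpG ratio. The peaks at Golph3 and Mpc2 were among the 47 members with at least 30 reads.

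**Figure D2:**
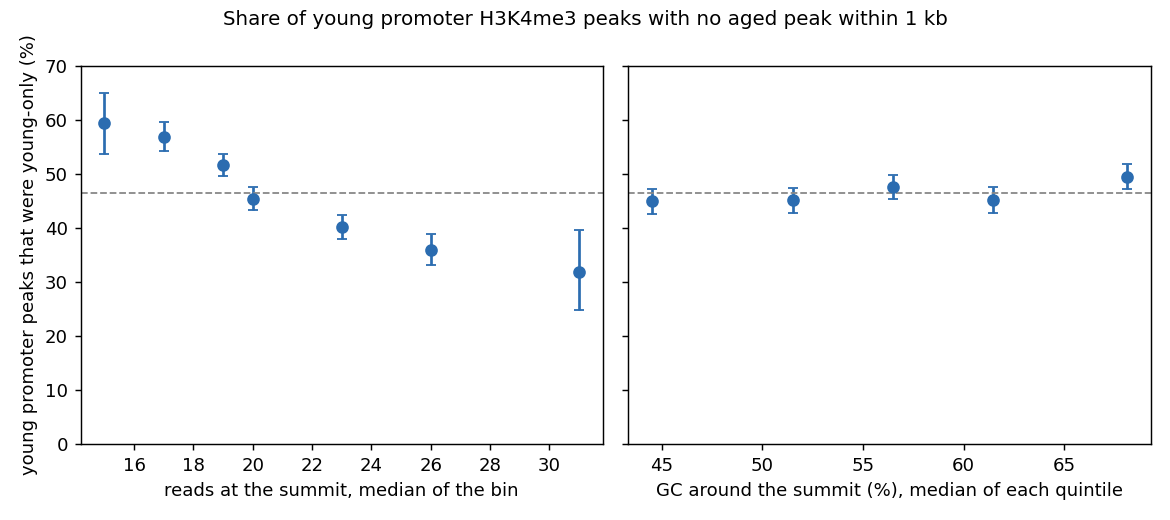
Share of young promoter peaks with no aged peak within 1 kb (y axis, %) by reads at the summit (left) and by GC content of 301 bp around the summit (right). Points are bins with 95% Wilson intervals, the dashed line is 46.5%, and the share fell from 59.4% to 31.8% with reads but stayed between 44.9% and 49.5% with GC.

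The rule kept only young peaks more than 1 kb from an aged one, and the aged list held just 6686 peaks on these chromosomes. Distances to that list are a description of the members, with no other group set beside them. The next aged peak was over 100 kb away for 1600 members, 50 to 100 kb for 854, 10 to 50 kb for 1205, 5 to 10 kb for 186, 2 to 5 kb for 108 and 1 to 2 kb for 195. The most distant members were at Cdh12, a cadherin of neurons (4513751 bp), Gbe1, the glycogen branching enzyme (4498457 bp), and Robo1, an axon guidance receptor (2929809 bp). The nearest were at Creb5, Zfp652 and Polr1d, at 1003, 1005 and 1008 bp. Just outside the limit, Uvrag (4.03-fold) and Mxd4 (4.86-fold) had aged peaks at 999 and 998 bp. At the limit on start sites, peaks at Spsb1 (1000 bp, 4.04-fold) and Rgl2 (999 bp, 3.43-fold) were members. Peaks at Dbp (1001 bp, 2.35-fold) and Peli2 (1002 bp, 4.48-fold) were not. By chromosome, the share of young promoter peaks that were young-only ranged from 41.6% on chromosome 13 to 51.9% on chromosomes 8 and 10.

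Around start sites, young-only peaks were placed much like the other promoter peaks. Their summits were at or downstream of the start site in 72.1% (70.7 to 73.4), compared with 71.0% of shared and 71.9% of aged-only peaks, and the median position was +207.5, +193 and +185 bp. The start site itself was inside 15.6% of young-only and 16.8% of shared peaks. Summits more than 500 bp from a start site made up 31.9% (30.5 to 33.4) of the young-only, 29.8% (28.6 to 31.1) of the shared and 27.5% (25.2 to 30.0) of the aged-only peaks. A larger gap was seen for promoters with start sites on both strands within 1 kb of the peak, which made up 10.2% (9.34 to 11.2) of the young-only peaks, 15.7% (14.7 to 16.7) of the shared peaks and 8.73% (7.34 to 10.4) of the aged-only peaks. Among the young-only peaks at such places was the one at Golph3, which also lay within 1 kb of a start site of 1810049J17Rik.

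**Figure D3:**
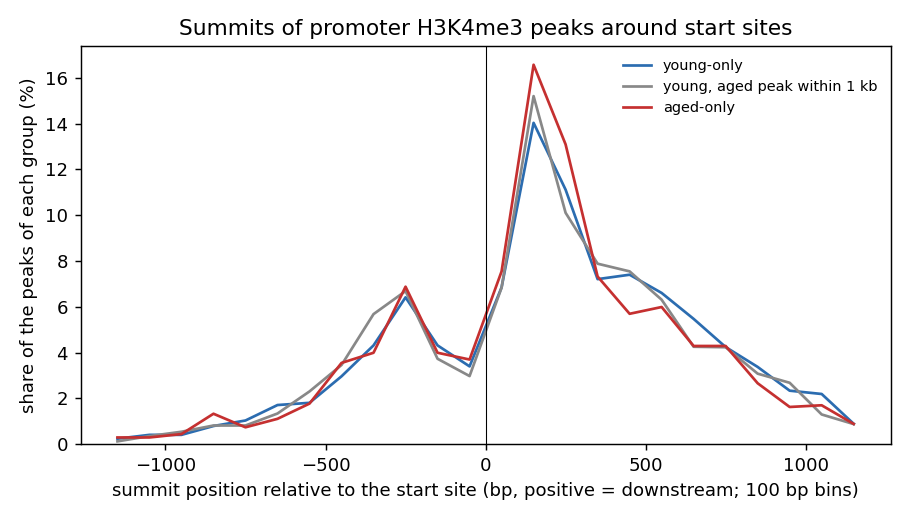
Position of peak summits relative to the nearest protein-coding start site (x axis, bp in 100 bp bins, positive downstream) as the share of each group's peaks (y axis, %). All 3 groups had a high peak downstream of the start site and a lower one upstream, with 72.1% of young-only summits at or downstream.

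The base composition of young-only peaks was close to that of shared peaks. Their median GC content was 56.8% (56.4 to 57.1), compared with 56.1% (55.8 to 56.5) in shared and 59.5% (58.8 to 59.9) in aged-only peaks. The ratio of observed to expected CpG was 0.633, 0.635 and 0.645. Over 39515 windows of 301 bp at start sites, the median GC content was 59.5% and the CpG ratio 0.627.

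Short motifs, each searched on both strands in 301 bp around the summit, separated young-only from shared peaks little. The GC box GGGCGG, bound by SP and KLF factors, was in 34.6% (33.2 to 36.1) of young-only, 33.6% (32.3 to 35.0) of shared and 42.8% (40.1 to 45.4) of aged-only windows, and in 47.2% of the windows at all start sites. The CCAAT box CCAAT, bound by NF-Y, was in 24.3%, 25.3%, 24.5% and 33.9%, and the ETS motif CCGGAAG in 6.73%, 7.15%, 6.21% and 11.3%. The IRF motif GAAANNGAA was in 9.45% (8.60 to 10.4) of young-only and 8.64% (7.87 to 9.47) of shared windows, and the RUNX motif TGTGGTT in 4.39% (3.81 to 5.05) and 3.54% (3.05 to 4.11). In all, 8 of the 17 motifs were more frequent in young-only than in shared windows. The core promoter and CpG-island motifs among the rest were TATAAA (the sequence bound by TBP), TGACGTCA (bound by CREB), CACGTG (bound by MYC and USF), GCATGCGC (bound by NRF1), AAGATGG (bound by YY1), TCTCGCGA (bound by ZBTB33), ACTACAATT (bound by THAP11) and TTCCCGCC (bound by E2F factors). The blood and signalling motifs were GAGGAAGT, bound by PU.1, AGATAA, bound by zinc finger factors of the GATA family, TGANTCA, bound by AP-1, and TTCCNGGAA, bound by STAT factors. A match is a run of letters, not a bound site, and the IRF, STAT and PU.1 patterns can overlap.

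Polycomb marks, which the choice of members did not use, overlapped a larger share of young-only than of shared peaks in the full lists. A young H3K27me3 region overlapped 328 young-only peaks, 7.91% (7.12 to 8.77), compared with 3.12% (2.67 to 3.66) of shared and 6.66% (5.45 to 8.11) of aged-only peaks, and 5.35% of all young promoter peaks. Aged H3K27me3 overlapped 120 young-only peaks, 2.89% (2.42 to 3.45), compared with 1.07% (0.814 to 1.40) of shared and 1.92% of all young promoter peaks. Aged H2AK119ub1 overlapped 261, 6.29% (5.59 to 7.07), compared with 4.42% (3.88 to 5.04) of shared and 5.29% of all. With lists of equal length the intervals for aged H2AK119ub1 overlapped, at 5.12% (4.30 to 6.08) of young-only and 3.92% (3.29 to 4.67) of shared peaks. Young H2AK119ub1 overlapped 6, or 0.145%, against 0.101% of all. The lists differed in extent, with 35.6 Mb of H3K27me3 in young and 8.42 Mb in aged HSCs, and 0.941 Mb of H2AK119ub1 in young and 7.19 Mb in aged HSCs on these chromosomes. The share in aged-only peaks was close to that in young-only peaks for each of these marks, so a higher share was seen in peaks listed at either age alone.

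The higher share of H3K27me3 was seen at low and high read numbers. At 18 reads or fewer, young H3K27me3 overlapped 12.1% (10.5 to 13.9) of young-only and 5.06% (3.94 to 6.47) of shared peaks. At 22 reads or more it overlapped 3.09% (2.26 to 4.21) and 1.37% (0.943 to 1.98). For aged H2AK119ub1 the shares were 8.68% (7.34 to 10.2) and 6.00% (4.77 to 7.51) at 18 reads or fewer, and 3.01% (2.19 to 4.12) and 2.84% (2.19 to 3.67) at 22 reads or more. This division by reads was chosen after the values were seen.

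**Figure D4:**
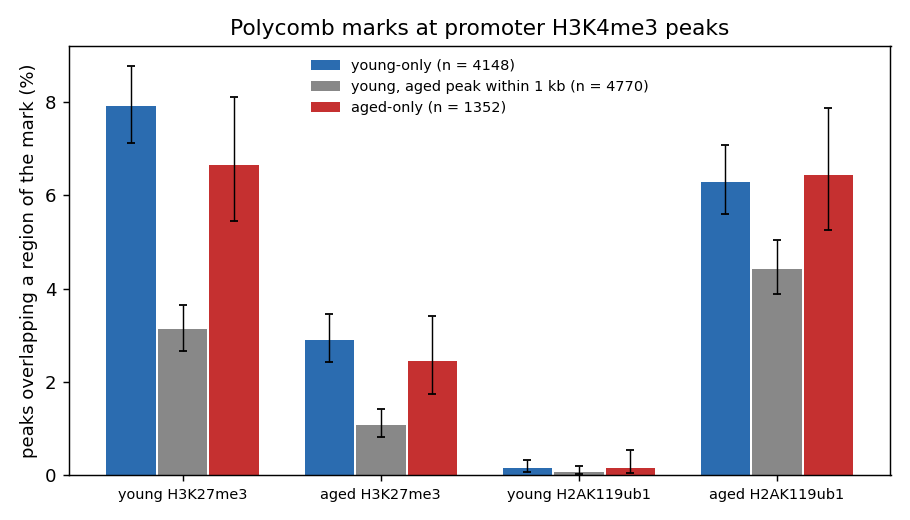
Share of promoter H3K4me3 peaks that overlapped a region of each Polycomb mark (y axis, %) for 4148 young-only peaks (blue), 4770 shared peaks (grey) and 1352 aged-only peaks (red), with 95% Wilson intervals. Young H3K27me3 was at 7.91%, 3.12% and 6.66%, and young H2AK119ub1 was near 0 in every group.

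Of the young-only peaks with H3K27me3, 213 had it in the young list alone, 115 at both ages and 5 in the aged list alone. H2AK119ub1 was in the aged list alone at 258 peaks. Shared peaks leaned the same way, with 149 in young and 51 in aged H3K27me3, and 3 in young and 211 in aged H2AK119ub1. The lean was thus not particular to the members and followed the extent of the lists. Combined states were counted in young-only peaks alone, so they have no share over all peaks beside them. Aged H2AK119ub1 lay on 135 peaks with young H3K27me3, on 67 with aged H3K27me3 and on 124 with no H3K27me3 at either age. No Polycomb mark of either age overlapped 3690 of the 4148 peaks. Members in young H3K27me3 had a median fold enrichment of 3.83 and a CpG ratio of 0.602 (0.583 to 0.621), compared with 4.04 and 0.636 (0.629 to 0.645) in the others. The strongest member in young H3K27me3 was at Cecr2, a chromatin remodelling factor (chr6:120665546-120665760, 5.67-fold, 26 reads). Meis2, a homeobox factor, followed (chr2:116066704-116067198, 5.53-fold, 25 reads), with its summit at -1196 bp. Of its 495 bp, 495 bp lay in young H3K27me3 and 476 bp in aged H2AK119ub1. Adap2 was tied with B4galnt2 for the next place (both 5.31-fold and 24 reads, at an equal −log10 q-value). The strongest in aged H2AK119ub1 was at Zbtb49, a zinc finger protein (chr5:38219811-38220386, 5.74-fold). The peak at B4galnt2, a glycosyltransferase (chr11:95915293-95915873, 5.31-fold), lay in H3K27me3 at both ages and in aged H2AK119ub1.

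By gene, 3682 genes had a young-only peak at a promoter, and 2865 of them had 1, 716 had 2, 92 had 3, 8 had 4 and 1 had 5. No aged peak was listed at any promoter of 3452 of these genes, while 230 had an aged peak elsewhere at a promoter. The strongest examples with an aged promoter peak nearby were at Mfsd11 and Srsf2, which share a promoter region (6.38-fold, aged peak at 1622 bp), and at Sbno2 (5.74-fold, 14092 bp). Over all genes, 7317 had a young promoter peak, and 3507 of these (47.9%) had no aged one. Of 5055 genes with an aged promoter peak, 1245 (24.6%) had no young one. The difference between 3507 and 3452 is made up of genes whose young peak had an aged peak within 1 kb that was itself more than 1 kb from their start sites. The gene lists below use the 47.9% as background.

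The gene with 5 young-only peaks was Nr4a2, an orphan nuclear receptor induced early after cell stimulation. Its peaks lay between 57112073 and 57123665 on chromosome 2, with 17, 21, 24, 15 and 27 reads at the summits in order of position. The strongest had 5.65-fold enrichment, and the next aged peak was 8742 bp from the nearest of them. The 2 leftmost peaks lay in young H3K27me3, and the 3 leftmost in aged H2AK119ub1. The 8 genes with 4 young-only peaks were Atxn7l1, Gna14, Ptch1, Rgl2, Runx1t1, Satb1, Xrn2 and Zfp668. Of these, Ptch1 is the hedgehog receptor, Runx1t1 a co-repressor known as a fusion partner of RUNX1 in leukaemia, and Satb1 a chromatin organizer of lymphoid cells. The 4 peaks of Satb1 had 19, 18, 18 and 15 reads and lay 633388 bp or more from an aged peak. The 4 of Runx1t1 had 22, 17, 19 and 18 reads, and 3 of them lay in young H3K27me3. An aged promoter peak was listed for Atxn7l1 but not for the others.

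The number of young peaks at a gene moved with its call. A gene with 1 young promoter peak had no aged promoter peak in 54.1% (52.7 to 55.5) of 4950 cases, a gene with 2 in 37.2% (35.0 to 39.3) of 1943, one with 3 in 26.0% (21.8 to 30.8) of 365 and one with 4 or more in 18.6% (10.7 to 30.4) of 59. For some of the lists that differ from the background, the genes that had 1 young peak are therefore also set apart.

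**Figure D5:**
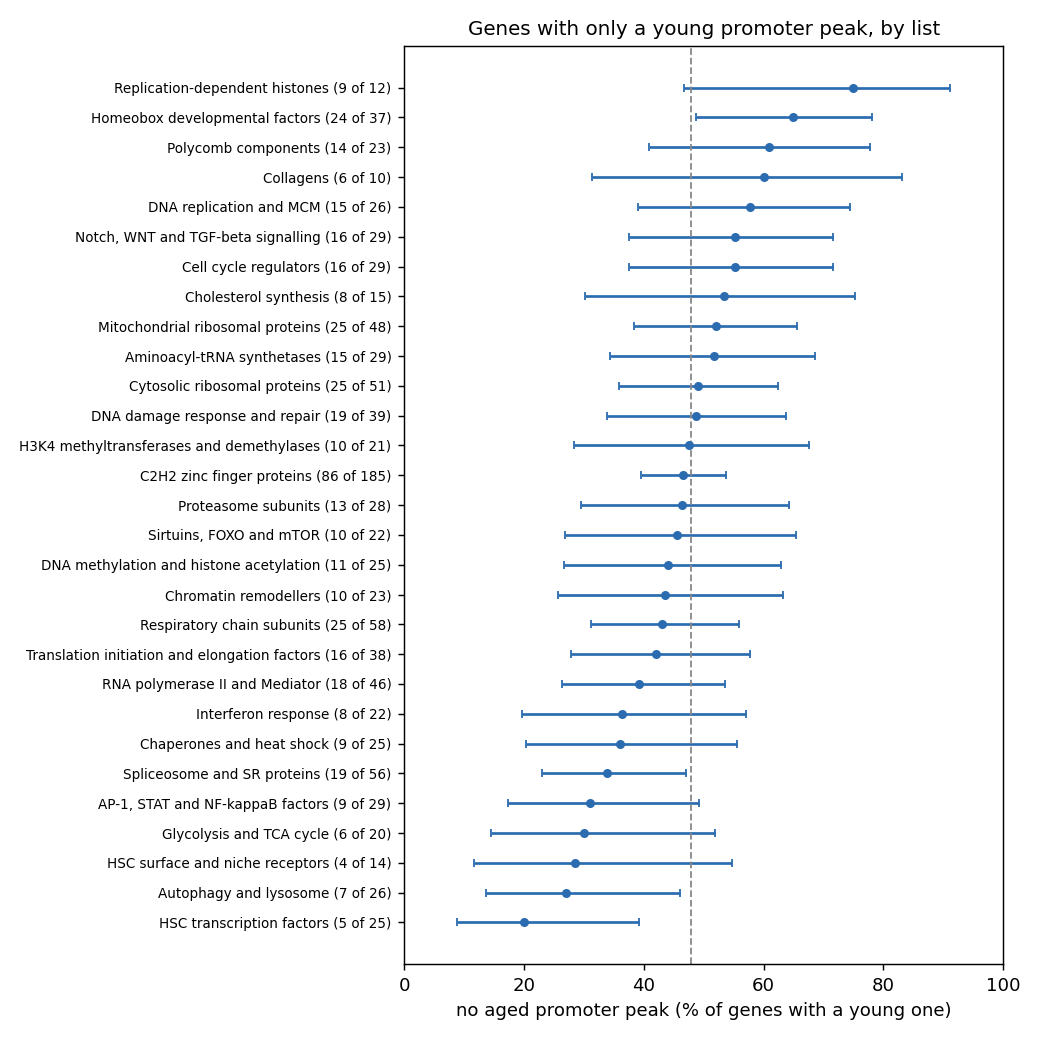
Genes with a young promoter peak and no aged promoter peak as a share of the genes with a young promoter peak (x axis, %), for the gene lists with at least 10 such genes (y axis, counts in brackets). Bars are 95% Wilson intervals and the dashed line is the 47.9% of all genes, which most intervals crossed, the HSC transcription factors lying lowest at 20.0% with the 1 kb promoters shown.

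With 1 kb promoters, the list of HSC transcription factors and their regulators had the lowest share of young-only genes among the lists with at least 10 genes. Of 34 genes in this list, 25 had a young promoter peak and 5 of these had no aged one, 20.0% (8.86 to 39.1) against 47.9%. With 2 kb promoters its share was 10.3% of 29 genes, and with 500 bp promoters 35.0% of 20 genes, above the 31.6% of the AP-1, STAT and NF-kappaB factors and the 33.3% of the HSC surface and niche receptors. The young-only genes were Nr4a1 (22 reads), Gata2 (21 reads), Msi2, an RNA-binding protein (20 reads), and Lyl1 (22 reads, aged peak at 1008 bp), together with Lmo2, named after its value was seen, whose young peak had an aged peak within 1 kb. Gata2, a zinc finger factor needed for HSC maintenance, had its young-only peak at chr6:88197878-88198121 with 4.44-fold enrichment, 112955 bp from the next aged peak. The nuclear receptor Nr4a1 had a peak at chr15:101266945-101267252 with 4.64-fold enrichment, 49164 bp from an aged peak. Another 5 genes of the list, Bmi1, Cbfb, Hhex, Hoxa9 and Mycn, had an aged promoter peak and no young one. They were 20.0% of the 25 with an aged peak, near the 24.6% of all aged genes. The genes of this list had 2.12 young promoter peaks each on average, compared with 1.39 over all genes. Among the 10 with 1 young peak, 5 were young-only, 50.0% against 54.1% of all such genes, so in this subset the list was near the background. Of the HSC surface and niche receptors, 4 of 14 were young-only (28.6%, 11.7 to 54.6). These were Cd9 (20 reads), Cd34 (20 reads), Cd27 (18 reads) and Neo1 (16 reads, in young H3K27me3). Cd34 codes for the antigen whose absence from the surface was part of the sort.

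The developmental factors (HOX, PAX, SOX, TBX and related families) had a share of young-only genes above the background. Of 37 genes with a young promoter peak, 24 had no aged one, 64.9% (48.8 to 78.2) against 47.9%. Of the 24 with 1 young peak, 20 were young-only, 83.3% against 54.1%. Among the 24 young-only genes, 17 had a member peak in young H3K27me3 and 13 in aged H2AK119ub1, compared with 274 and 232 of all 3507 young-only genes. The strongest peaks were at Pax2 (5.10-fold, 23 reads) and Irx3 (4.89-fold, 22 reads), both in young H3K27me3 and aged H2AK119ub1. The peak at Sox4 (4.30-fold, 22 reads, aged peak at 1465 bp) was in aged H2AK119ub1 and not in young H3K27me3. Another 8 genes had only an aged promoter peak, 38.1% of the 21 with an aged one, against 24.6% of all aged genes. The share was thus above the background on the aged side too. When the 2 lists were limited to the same number of peaks, 10 of 18 genes (55.6%) were young-only, against 44.1% of all genes. At that setting 13 of 21 (61.9%) were aged-only, against 43.8% of all genes. Neither age then held more of these genes on its own by a wide margin. Of the collagens, 6 of 10 were young-only, 3 of them in young H3K27me3, among them Col13a1 (4.25-fold) and Col12a1 (3.63-fold). Col4a1 and Col4a2 shared 1 peak (3.83-fold).

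Genes of DNA replication and the cell cycle were young-only at shares whose intervals included the background. Of 26 replication genes with a young promoter peak, 15 were young-only (57.7%, 38.9 to 74.5), and none had an aged peak alone, where the background of aged genes was 24.6% and the list had 11 aged genes. The strongest were at Orc3, a subunit of the origin recognition complex, which shared its peak with Rars2 (6.05-fold, 29 reads), Pold3, a subunit of DNA polymerase delta (5.53-fold, 25 reads), Rfc3, a subunit of the clamp loader (5.24-fold, 25 reads), and Cdc45, a part of the replicative helicase (4.52-fold, 25 reads). Other young-only genes of the list, named after their values were seen, were Mcm2, Mcm4, Mcm5, Mcm10 and Pcna. With equal numbers of peaks in the lists, 11 of 21 were young-only and 1 of 11 aged-only, where all genes gave 44.1% and 43.8%. Of the cell cycle regulators, 16 of 29 were young-only (55.2%, 37.5 to 71.6). Of 14 with an aged peak, 1, E2f4, was aged-only (7.14%, against 24.6% of all aged genes). E2f3 (5.85-fold, 28 reads), Rb1 (4.89-fold, 22 reads), Aurka (4.64-fold, 22 reads) and Ccne2 (4.64-fold, 22 reads) had the strongest peaks. With the same number of peaks, 10 of 21 were young-only and 3 of 14 aged-only, against those same shares of all genes. Of the replication-dependent histone genes, 9 of 12 were young-only (75.0%, 46.8 to 91.1), led by Hist1h3i (4.89-fold) and Hist1h1a (4.68-fold). Hist1h2ac and Hist1h2bc shared 1 peak, and histone genes lie close together with near-identical copies, so their peaks are uncertain.

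On the young side, the genes of H3K4 methylation, of DNA methylation and histone acetylation and of chromatin remodelling were near the background. Of the genes that write or erase H3K4 methylation, 10 of 21 were young-only (47.6%, 28.3 to 67.6). None of the 11 with an aged peak had it alone, against 24.6% of all aged genes. Setd1a (4.68-fold, 21 reads), a catalytic subunit of a SET1 complex, Men1 (4.20-fold, 20 reads), which codes for menin, and the core subunits Dpy30 (4.25-fold, 19 reads) and Rbbp5 (4.17-fold, 19 reads) were among them. With the same number of peaks, 5 of 15 were young-only and 1 of 11 aged-only, against 44.1% and 43.8% of all genes. Of the Polycomb components, 14 of 23 were young-only (60.9%, 40.8 to 77.8) and 8 of 17 aged-only (47.1%, against 24.6% of all aged genes), so that 9 genes had a peak at both ages. With equal numbers of peaks, 7 of 15 (46.7%) were young-only and 9 of 17 (52.9%) aged-only, closer to the 44.1% and 43.8% of all genes. Rybp (5.65-fold, 27 reads), Kdm2b (4.89-fold, 22 reads), Asxl1 (3.75-fold, 25 reads) and Yaf2 (4.25-fold, 19 reads) had the strongest young-only peaks. Rybp and Yaf2 are paralogous subunits of Polycomb repressive complex 1, and Kdm2b brings that complex to CpG islands. Of the DNA methylation and histone acetylation genes, 11 of 25 were young-only (44.0%), among them Brd7 (5.04-fold), Hdac1 (5.31-fold), Kat5 (4.86-fold) and Tet3 (4.89-fold). Of the chromatin remodellers, 10 of 23 were young-only (43.5%), led by Daxx (6.38-fold, 29 reads) and Smarcd3 (5.53-fold).

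Housekeeping lists gave large numbers of members at shares around the background. Of the cytosolic ribosomal protein genes, 25 of 51 were young-only (49.0%), among them Rplp1 (5.74-fold, 26 reads) and Rpl23 (4.69-fold, 26 reads). Of the mitochondrial ribosomal protein genes, 25 of 48 were young-only (52.1%), led by Mrps22 and by Mrpl32 (6.45-fold, 31 reads), which shared its peak with the proteasome gene Psma2. The respiratory chain had 25 of 58 (43.1%), with Ndufa12 (6.25-fold, 30 reads) and Cox6b1 (6.38-fold, 29 reads). The proteasome had 13 of 28 (46.4%), the translation factors 16 of 38 (42.1%), the aminoacyl-tRNA synthetases 15 of 29 (51.7%) and the C2H2 zinc finger genes 86 of 185 (46.5%). Many of these families have processed copies elsewhere in the genome, and the reads were aligned with Bowtie2 at its default setting, which places a read with several equally good alignments at one of them.

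Below the background were the spliceosome genes, with 19 of 56 young-only (33.9%, 22.9 to 47.0), and the autophagy and lysosome genes, with 7 of 26 (26.9%, 13.7 to 46.1). Of those with 1 young peak, 13 of 29 spliceosome genes (44.8%) and 6 of 18 autophagy genes (33.3%) were young-only, against 54.1%. The young-only spliceosome genes included Hnrnph3 (5.79-fold, 30 reads) and Hnrnph1 (5.76-fold, 28 reads), and the autophagy genes Ctsb, a lysosomal protease (5.04-fold, 24 reads), and Atg14 (4.44-fold, 21 reads). Glycolysis and the TCA cycle had 6 of 20 (30.0%, 14.5 to 51.9), among them Dlat (5.10-fold) and Gapdh (4.89-fold). The AP-1, STAT and NF-kappaB factors had 9 of 29 (31.0%, 17.3 to 49.2). Among those were Fosb (4.47-fold, 30 reads, aged peak at 1517 bp), Mafk (4.68-fold) and Stat5a (4.11-fold). The interferon response had 8 of 22 (36.4%), among them Socs1 (5.31-fold), Ticam1 (5.10-fold) and Oas1a (4.23-fold), and the chaperones 9 of 25 (36.0%), led by Calr (6.05-fold, 29 reads) and Hsp90aa1 (5.95-fold, 27 reads). RNA polymerase II and Mediator had 18 of 46 (39.1%, 26.4 to 53.5), with Med24 the strongest. Among genes with 1 young peak, the interferon response (50.0% of 16) and chaperones (54.5% of 11) were near the 54.1% of all such genes. The AP-1, STAT and NF-kappaB factors (35.0% of 20), RNA polymerase II and Mediator (31.0% of 29) and glycolysis (16.7% of 12) stayed below it. The aged-only shares were also below the 24.6% of all aged genes for the spliceosome (11.9%), autophagy (13.6%) and AP-1, STAT and NF-kappaB lists (9.09%). They were lower too for the chaperones (15.8%), glycolysis (17.6%) and RNA polymerase II and Mediator (22.2%), and higher for the interferon response (26.3%). With lists of equal length, all but glycolysis (52.9%) were below the 43.8% of all aged genes. For most of these lists the low share was thus not particular to the young side.

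Genes of signalling and metabolism often named in work on ageing had shares from 45.5% to 55.2%, and the higher of these moved with the settings. The sirtuin, FOXO and mTOR list had 10 of 22 young-only (45.5%). It held Sirt1, a protein deacetylase (6.38-fold, 29 reads, chr10:63382129-63382759, 46151 bp from an aged peak), Pik3ca (4.89-fold), Mlst8 (3.70-fold, 32 reads) and Rheb (4.44-fold). The Notch, WNT and TGF-beta list had 16 of 29 (55.2%), with Gsk3a and Notch2 (4.68-fold), cholesterol synthesis 8 of 15 (53.3%), with Dhcr7 (5.31-fold), and DNA damage response 19 of 39 (48.7%), with Rnf168 (5.10-fold) and Fancg (4.64-fold). The Notch, WNT and TGF-beta list had a share of 76.0% of 25 genes with 500 bp promoters, against 51.5% of all genes. With −log10 q-values from 4 up in both lists it was at 80.0% of 20 genes and cholesterol synthesis at 80.0% of 10, against 60.1% of all genes.

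Genes of the differentiated blood lineages are set beside all genes, of which 7317 of 20696 had a young promoter peak and 5055 an aged one. Of 25 myeloid and erythroid genes, 8 had a young promoter peak and 5 of these had no aged one. Irf8 had 5.31-fold enrichment and 24 reads, Irf4 5.04-fold and 24 reads with young H3K27me3, and Epor, the erythropoietin receptor, 4.25-fold and 19 reads with aged H2AK119ub1. Of the 29 lymphoid genes, 9 had a young promoter peak, and 3 of these, Cd79b, Tcf12 and Lef1, were young-only. Of the potassium channel genes, 4 of 9 were young-only. The olfactory receptors and the stromal, endothelial and neuronal markers had 1 gene each with a young promoter peak and no young-only gene.

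As a check of the cell type, H3K4me3 was looked for at promoters of marker genes. Of 8 HSC markers, 5 had a young peak, among them Procr, Hlf, Mecom and Fgd5, and 6 an aged one, Kit being in the aged list alone. Ly6a, which codes for Sca-1, and Slamf1, which codes for CD150, were in neither list although both proteins were used for the sort, so an unlisted promoter is not shown to lack the mark. None of 4 T cell and 5 myeloid markers had a peak at either age. In the wider lists above, 3 of 25 myeloid and erythroid genes and 6 of 29 lymphoid genes had a peak at both ages. Among these, named after their values were seen, were Cebpa, Csf3r, Gata3 and Ptprc. As only 7317 of 20696 genes had a young promoter peak, an absence at so few markers cannot show purity. Of 4 B cell markers, Ebf1 had a peak at both ages, and of 4 endothelial and stromal markers, Kdr had an aged peak. Of 3 erythroid markers, 2 had a young-only peak, among them Epor, and the part of other cells in these peaks was not tested.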

How the data were processed

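The authors sorted HSCs, cross-linked them, broke up the chromatin by sonication before and after micrococcal nuclease digestion, and used Bowtie2 at its default setting to align the reads to mm10. MACS2 2.2.6 is named in the submitters' processing notes, and the lists have its layout. Duplicate handling is not given in the sources used here. Per mark and age, 1 pooled list was deposited. Names of H3K4me3 peaks hold 2 library numbers and names of broad regions 1, so it is uncertain that both libraries entered each broad list. For each peak the authors deposited a fold enrichment (a linear ratio over local background), a −log10 p-value, a −log10 q-value, a score derived from the q-value and, for H3K4me3, the summit.

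Total reads per library are not in these lists. The pileup was recovered from fold = (pileup + 1) / (background + 1) and the Poisson p-value, and 100% of the promoter peaks gave a whole number of reads (tolerance 0.001 on the −log10 p-value). Start sites were those of protein-coding transcripts in GENCODE M21 (mm10, basic set), 39540 sites of 20696 genes on chromosomes 1 to 19. All peaks ended within the mm10 chromosome lengths. Broad regions were matched at an overlap of 1 bp. Sequence was read with pysam 0.24.0. Other steps used Python 3.11.15, numpy 2.4.6, pandas 2.3.3, scipy 1.17.1 and matplotlib 3.10.9, and the code was tested on simulated data.

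The members, the 34 gene lists and the motifs were chosen with earlier results of these data known. Peaks named were the 10 with the highest −log10 q-value, the 3 widest, the 3 genes with the most members (with ties), the 3 strongest in young H3K27me3 and in aged H2AK119ub1, the 3 farthest from and nearest to an aged peak, up to 4 genes per list by −log10 q-value, and those just inside and outside each limit. Genes with an aged promoter peak elsewhere or alone, marker genes and genes said to be named after their values were seen fall outside this rule. A few genes that the rule names are not reported here. With pooled lists no test was made. The alternatives were 500 bp and 2 kb promoters, overlap only, a 5 kb gap, −log10 q-values from 4 up, lists of equal length, joined peaks, all protein-coding transcripts, stricter or wider overlap with broad regions and motifs over the whole peak. Peaks on X, Y and scaffolds were not used.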

Additional observations from a re-analysis of the deposited data

Results flagged for a closer look

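Chromosome X was outside the chromosomes analysed. By the same rule, 56 of 70 young promoter H3K4me3 peaks on it had no aged peak within 1 kb (80.0%), compared with 46.5% on chromosomes 1 to 19. It is listed here because the report's comparisons do not use these peaks. The pooled lists give no values per replicate, and the difference from the other chromosomes was not tested.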

How the results depend on the processing

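No paired analysis was possible because the 6 lists are pooled and hold no replicate values. The share of young promoter peaks that were young-only was 65.8% when any gap counted as no overlap, 43.1% with a 5 kb gap, 60.1% when both lists were limited to −log10 q-values from 4 up and 49.4% after joining peaks within 1 kb. With lists of equal length, 2383 peaks (43.8%) were young-only and 2403 of 5431 aged promoter peaks (44.2%) aged-only. That setting gave a median fold enrichment of 4.46, a −log10 q-value of 5.52, a width of 307 bp and 2196 genes with a young-only and no aged promoter peak. With 500 bp promoters the median −log10 q-value was 4.75, the CpG ratio 0.657 and the GC content 58.1%. With overlap only, the GC content was 56.3%.

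When 50% of the peak had to be covered, 6.53% of young-only peaks had young H3K27me3, 2.03% aged H3K27me3, 0.0482% young H2AK119ub1 and 4.17% aged H2AK119ub1. Regions within 1 kb gave 11.4%, 6.12%, 1.35% and 16.6%. Broad regions of −log10 q-values from 2 up gave 6.97% for young H3K27me3, 1.11% for aged H3K27me3 and 2.53% for aged H2AK119ub1. Members by overlap only gave 6.78% for young and 2.40% for aged H3K27me3. With the same number of peaks the shares were 5.83%, 2.31%, 0.0420% and 5.12% (4.30 to 6.08), against 2.71% of shared peaks for young H3K27me3 and 3.92% (3.29 to 4.67) for aged H2AK119ub1, where the intervals overlapped. Of 29 lists with at least 10 genes, 12 were above the background of all genes, compared with 6 of 26 with −log10 q-values from 4 up. Single lists that left their own interval there were the mitochondrial ribosomal (69.2%), spliceosome (55.3%), interferon (58.8%) and C2H2 zinc finger (62.5%) genes, with cholesterol synthesis and Notch, WNT and TGF-beta both at 80.0%, against 60.1% of all genes. With lists of equal length the collagens (1 of 4) did so too. Of the 17 motifs, 4 were more frequent in young-only than in shared peaks over the whole peak, compared with 8 in windows, and the CRE, GATA and IRF motifs were then in 0.338%, 8.46% and 10.5% of young-only peaks. Of the other planned settings of these results, 34 stayed within the main interval or 1.5 times the count. The causes were not tested. The median pileup was 20 reads in young-only and 19 in aged-only peaks, and whether such pileups limit what either list could hold was not tested.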
